A study of Mus musculus with 14 samples.

Results

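Iron handling was followed in macrophages sorted from bleomycin-injured and control mouse lungs through 9 genes. They cover iron uptake (Tfrc, Trf, Steap3, Slc11a2, Slc11a1), storage (Fth1, Ftl1, Ncoa4) and export (Slc40a1). The genes were taken by name from a table of 43432 genes, and all 9 passed the filter on low values, which left 17390 genes to be tested. Slc11a1, the metal transporter of phagosomes, was higher in cells with high surface MHC class II (MHCII) than in cells with low MHCII, by 6.33-fold averaged over both time points. Fth1, the ferritin heavy chain, was 2.25-fold higher in MHCII-low cells 2 weeks after bleomycin than in MHCII-low cells of control lungs. That difference passed under 10 of 16 alternative fits, and not with the share of mitochondrial rRNA as a covariate. The other 7 genes passed the test in none of the 8 comparisons made.

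The cells came from male 129S1 mice aged 10 to 12 weeks, which received either water or bleomycin (3 U/k, as the labels write it) by the intratracheal route. Bleomycin injures the lung epithelium and is used to model lung fibrosis. SiglecF-positive, CD11c-positive lung cells, the usual gate for alveolar macrophages, were sorted by MHCII level. The 5 groups were MHCII-high and MHCII-low cells at 2 weeks after bleomycin, the same pair at 4 weeks (3 libraries in each group), and MHCII-low cells of control mice (2 libraries, numbered 1 and 3 in the labels). No MHCII-high control was analysed here, so the tests against controls use MHCII-low cells only. Where MHCII-high libraries are set beside the controls, MHCII level and treatment differ together. The labels do not say that the libraries of a group came from separate animals. The p-values therefore measure the spread between these libraries, which may be technical.

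Cells take up iron mainly as transferrin (Trf) bound to its receptor (Tfrc). In the endosome Steap3 reduces the released iron, and Slc11a2 (DMT1) carries it into the cytosol. Slc11a1 (Nramp1) moves divalent metals across the phagosome membrane of macrophages; 129 strains carry a functional form, whereas C57BL/6 mice carry a point-mutated one. Ferritin, a shell of heavy (Fth1) and light (Ftl1) chains, stores iron in the cytosol, Ncoa4 delivers ferritin to the lysosome for release of that iron, and ferroportin (Slc40a1) is the cell's iron exporter. Alveolar macrophages are known to hold iron in the airspace, where they take up iron from inhaled particles, dying cells and red cells.

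Several of these mRNAs carry iron-responsive elements, short hairpins bound by the iron regulatory proteins when iron is scarce. Binding in the 5′ untranslated region blocks translation, and binding in the 3′ untranslated region of Tfrc protects the mRNA from decay, so for ferritin and ferroportin mRNA level and protein level can move apart. The hairpins are shown for those of the 9 genes in which a strict search found them. They were found by a search of the GENCODE M21 transcripts (GRCm38), on the transcript strand, for the loop CAGTGN closed by a stem of 5 base pairs, with an unpaired C before the stem and at most 1 G–T pair in it. A match in an untranslated region was found in 4 of the 9 genes and in 76 of 22527 protein-coding genes (0.337%). Each hairpin is written 5′ to 3′ with the 6-base loop in capitals.
Tfrc, 3′ untranslated region, chr16:32631220-32631247, plus strand: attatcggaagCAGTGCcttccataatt
Tfrc, 3′ untranslated region, chr16:32631599-32631626, plus strand: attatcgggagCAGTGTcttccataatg
Tfrc, 3′ untranslated region, chr16:32631664-32631691, plus strand: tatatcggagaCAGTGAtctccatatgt
Tfrc, 3′ untranslated region, chr16:32631711-32631738, plus strand: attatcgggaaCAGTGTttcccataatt
Fth1, 5′ untranslated region, chr19:9982733-9982760, plus strand: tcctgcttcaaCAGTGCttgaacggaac
Ftl1, 5′ untranslated region, chr7:45459779-45459806, minus strand: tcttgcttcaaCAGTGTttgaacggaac
Slc40a1, 5′ untranslated region, chr1:45925465-45925492, minus strand: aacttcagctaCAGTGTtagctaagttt
Tfrc has 4 such hairpins in its 3′ untranslated region, and Fth1, Ftl1 and Slc40a1 have theirs in the 5′ untranslated region. For the 5 genes without a match, the search says only that these letters and pairings were not found. An element with another loop or an imperfect stem would be missed, so these genes cannot be said to lack one.

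Values are normalized counts, gene counts that the authors scaled per library. Whole reads could be recovered from them in all 14 libraries, giving 15106415 to 88059629 reads per library. The share of mitochondrial rRNA in those reads ran from 3.12% to 28.99%: 21.67% to 24.08% in the controls, 3.42% to 18.32% and 3.12% to 23.15% in MHCII-low cells at 2 and 4 weeks, and 22.51% to 26.25% and 8.12% to 28.99% in MHCII-high cells. The alveolar macrophage genes Siglecf (3056 to 9551) and Itgax, which encodes CD11c (25185 to 44133), were present in every library. Differences are log2 fold changes of value + 1 with their standard error (SE), from limma fitted on all 17390 genes and 14 libraries. A gene passed at a Benjamini-Hochberg adjusted p under 0.05.

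**Figure D1:**
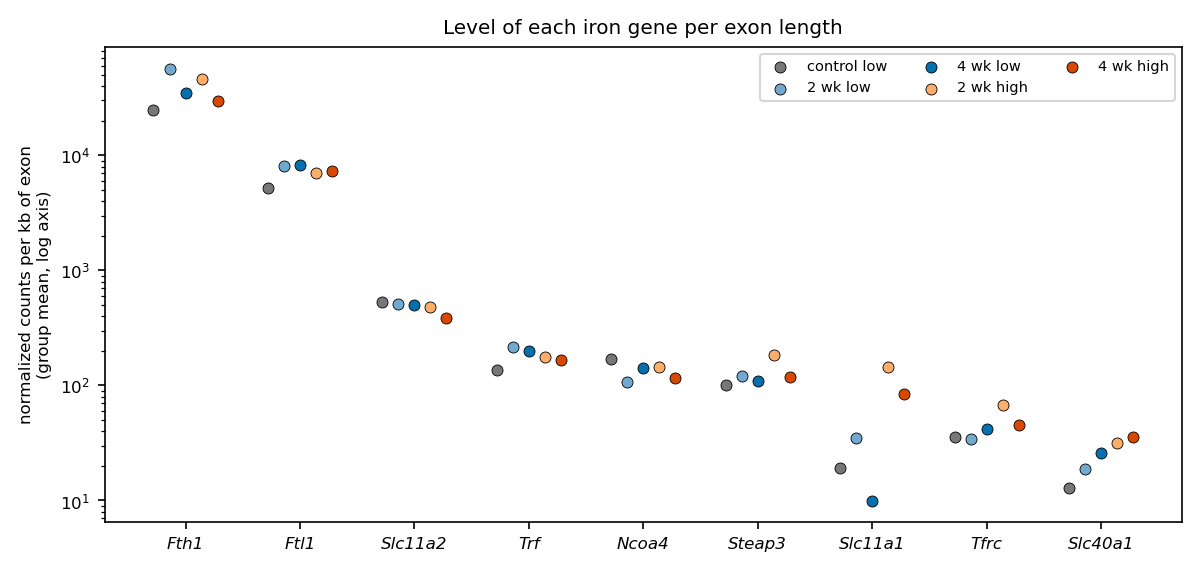
Mean normalized counts per kilobase of exon (log axis) of the 9 iron genes in each of the 5 groups, 1 point per group. The ferritin chains Fth1 and Ftl1 stand at the top, and Slc11a1 has the widest spread between groups, from 145.1 in 2-week MHCII-high cells to 9.933, the lowest point drawn, in 4-week MHCII-low cells.

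Per kilobase of exon, ferritin was the most abundant message of the 9. Averaged over the 14 libraries, Fth1 stood at 39510 and Ftl1 at 7293 normalized counts per kilobase. Slc11a2 followed at 477, Trf at 181, Ncoa4 at 133, Steap3 at 129 and Slc11a1 at 61.6. Across libraries the highest value was 85.96 times the lowest for Slc11a1 (11.58 times without 4-week MHCII-low replicate 2) and 3.03 times for Fth1. At the low end of abundance stood the transferrin receptor Tfrc (45.6) and ferroportin (25.7), whose highest values were 4.19 and 4.67 times the lowest. The range was narrowest in Ncoa4 (1.95 times) and Slc11a2 (2.02 times).

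Tfrc, the transferrin receptor (chr16:32608920-32632794, plus strand, mm10), did not pass in any comparison. The 2-week MHCII-high libraries held 406.5, 644.7 and 215.5 normalized counts, and the 2-week MHCII-low libraries 237.2, 213.4 and 179.5. At 4 weeks the MHCII-high libraries held 154.0, 373.4 and 306.7 and the MHCII-low libraries 206.7, 338.2 and 231.4, and the controls held 256.7 and 185.1. The MHCII-high cells at 2 weeks had the highest mean, 422.2 ± 215 (SD, n = 3), but a library of that group lay below the highest MHCII-low library. The 2-week difference between MHCII-high and MHCII-low cells was 0.88 ± 0.42 (log2, SE; limma adjusted p = 0.321). In the order of group means every neighbouring pair overlapped.

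Trf, which encodes transferrin itself (chr9:103204001-103230444, minus strand), was read at 484.6 and 423.6 in the controls. The MHCII-low libraries held 604.1, 576.4 and 963.6 at 2 weeks and 738.4, 653.9 and 581.1 at 4 weeks, so all 6 lay above both controls. The MHCII-high libraries spread around these, with 452.3, 573.4 and 731.5 at 2 weeks and 792.9, 313.8 and 534.3 at 4 weeks. MHCII-low cells differed from controls by 0.62 ± 0.35 at 2 weeks (log2, SE; limma adjusted p = 0.503) and by 0.53 ± 0.35 at 4 weeks (limma adjusted p = 0.897), neither of which passed. The exons of Trf share 2108 bases with Gm20425, a gene model on the same strand that is listed at 0 in every library.

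Steap3, the endosomal ferrireductase (chr1:120190757-120272705, minus strand), was tightly grouped in the 2-week MHCII-high cells. Those libraries held 1083.6, 996.1 and 1074.7 normalized counts, above each of the other 11 libraries. The share of all genes with that pattern was not worked out, but 12.9% lay wholly above the MHCII-low libraries at 2 weeks. The 2-week MHCII-low libraries held 528.0, 662.4 and 883.7, and the controls 572.6 and 582.8. At 4 weeks the MHCII-high libraries (472.4, 903.7 and 659.7) and the MHCII-low libraries (851.6, 395.1 and 637.6) overlapped. The MHCII difference at 2 weeks was 0.64 ± 0.29 (log2, SE; limma adjusted p = 0.297), and from 2 to 4 weeks MHCII-high cells differed by -0.68 ± 0.29 (limma adjusted p = 0.287). Neither passed.

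**Figure D2:**
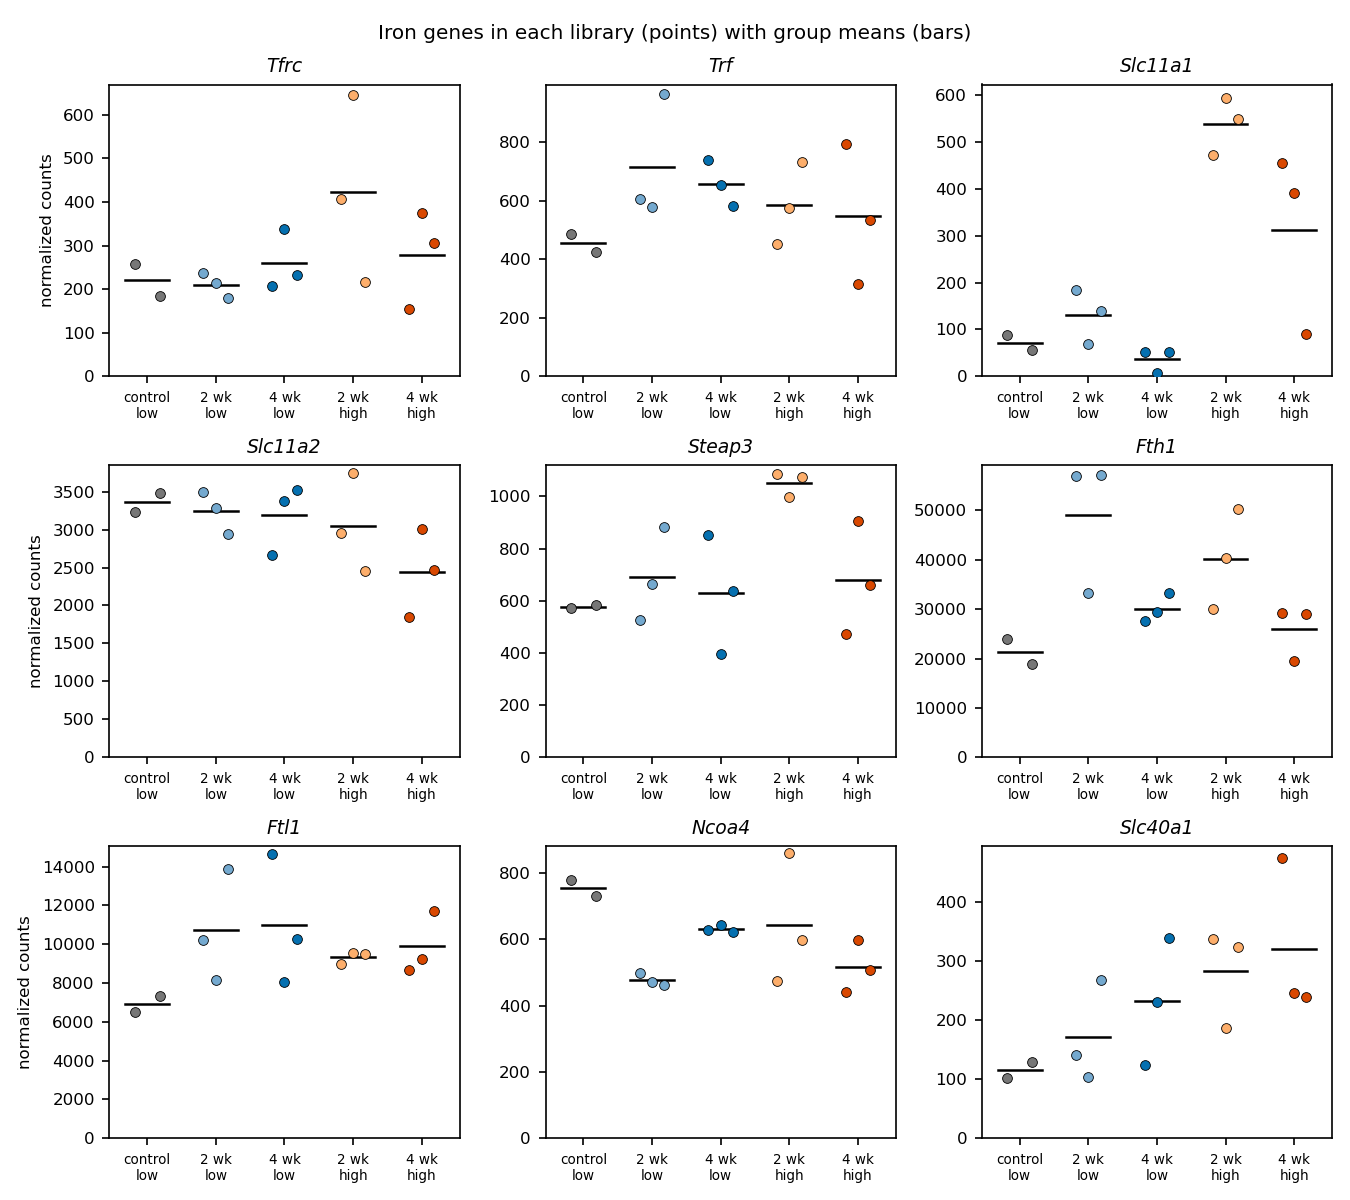
Normalized counts of the 9 iron genes in each of the 14 libraries (points), by group, with the group mean as a bar. Slc11a1 is high in the MHCII-high groups except in 1 of the 4-week libraries, at 91.3, and Fth1 is lowest in the controls on average.

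The metal transporters differed in how widely they varied. Slc11a2, the endosomal transporter (chr15:100387898-100425072, minus strand), stayed within a 2.02-fold range, from 1852 normalized counts in a 4-week MHCII-high library to 3749 in a 2-week MHCII-high library. Its group means ran from 2441 ± 576 (SD, n = 3) in 4-week MHCII-high cells to 3357 ± 183 (SD, n = 2) in controls, every neighbouring pair overlapped, and it passed in no comparison. The difference between MHCII-high and MHCII-low cells was -0.40 ± 0.20 at 4 weeks (log2, SE; limma adjusted p = 0.342). Its exons share 402 bases with Gm5475 on the other strand, at 0 to 46.8 normalized counts, and whether the authors counted by strand is not given in the sources used here.

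Slc11a1 (chr1:74375195-74386062, plus strand) ranged from 6.9 to 593.1 normalized counts. The 2-week MHCII-high libraries held 471.8, 593.1 and 548.2, and the 2-week MHCII-low libraries 183.5, 68.5 and 139.3. At 4 weeks the MHCII-high libraries held 455.8, 390.7 and 91.3, and the MHCII-low libraries 52.3, 6.9 and 51.2. Within each week the lowest MHCII-high library lay above the highest MHCII-low library. The lowest value, 6.9, rests on 7 reads. The controls held 88.0 and 55.1, between the MHCII-low cells of 4 weeks and the highest MHCII-low libraries of 2 weeks.

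**Figure D3:**
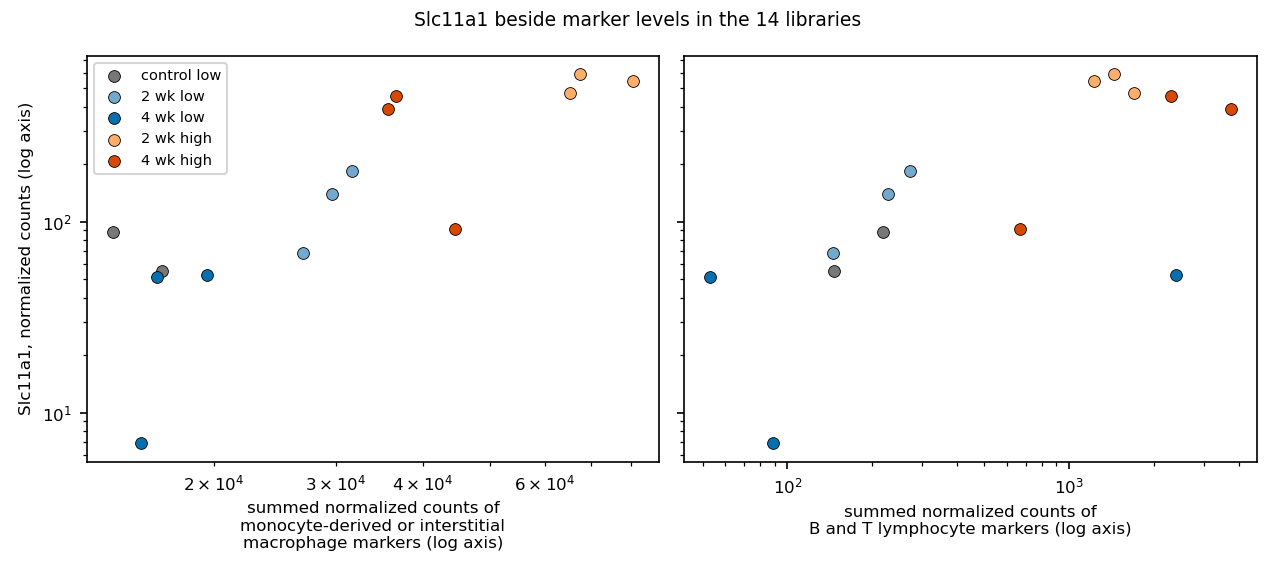
Slc11a1 in each library against the summed level of the listed monocyte-derived or interstitial macrophage markers and of the lymphocyte markers, in normalized counts on log axes, coloured by group. The MHCII-high libraries lie apart from the MHCII-low and control libraries on the monocyte-marker sum, and the 4-week MHCII-high library with low Slc11a1 (91.3) has the highest monocyte-marker sum of its group (44604).

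Averaged over both weeks, Slc11a1 was higher in MHCII-high cells by 2.66 ± 0.49 (log2, SE; 95% interval 1.65 to 3.68), with a limma adjusted p of 0.00123. It was the 1 of 9 iron genes that passed in that comparison, in which 7.21% of all genes tested passed. At 4 weeks the difference was 3.18 ± 0.69 (limma adjusted p = 0.0123), again the 1 iron gene of 9 that passed, where 2.5% of all genes passed. At 2 weeks it was 2.14 ± 0.69 (limma adjusted p = 0.108), and 0 of the 9 iron genes passed, against 2.87% of all genes. The 4-week and 2-week differences were not separable: the difference between them was 1.04 ± 0.98 (log2, SE; limma adjusted p = 0.961).

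The average over both weeks passed under each of the 24 alternative fits, with 2.21 to 3.64 on the log2 scale, the highest with the mitochondrial rRNA share as a covariate. The 4-week call was lost without MHCII-high replicate 1 (2.76, limma adjusted p = 0.0577), MHCII-high replicate 2 (2.87, 0.0528) or MHCII-low replicate 2 (2.27, 0.071), without the filter on low values (0.0519) and with only the 2 groups fitted (0.313). Without MHCII-high replicate 3, the library at 91.3, the 4-week difference was 3.92 (limma adjusted p = 0.00208).

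Other cell-type markers moved with the MHCII sort. Of 10 listed markers of monocyte-derived or interstitial macrophages, 8 were higher in MHCII-high cells at each week (limma). Their summed level was 65301 to 80465 normalized counts in 2-week and 35697 to 44604 in 4-week MHCII-high libraries, against 26897 to 31635 and 15725 to 19528 in the matching MHCII-low libraries and 14302 to 16840 in controls. The complement gene C1qa, 1 of those markers, was at 0 in a control library and at no more than 247.8 in MHCII-low libraries. Dendritic cell markers summed to 865.8 to 1975.2 in MHCII-high and 76.7 to 249.7 in the other libraries, with 3 of 6 higher in MHCII-high cells at each week. Markers of B and T lymphocytes (6 listed, 5 tested) summed to 670.6 to 3749.8 in MHCII-high and 53.3 to 2400.2 in MHCII-low libraries, with 1 higher at 2 weeks and 2 at 4 weeks. Alveolar epithelial markers summed to 3470 to 9828 in MHCII-high and 1274 to 3372 in MHCII-low libraries. Of 3 club cell markers, 2 were lower in MHCII-high cells averaged over both weeks. Of 10 alveolar macrophage markers, 4 were lower in MHCII-high cells at 2 weeks and 3 at 4 weeks. The part of these cells in the Slc11a1 difference was not tested. In bulk RNA from a sorted gate, fewer cells of a type and less RNA per cell cannot be told apart.

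The 4-week MHCII-high library at 91.3 had the highest monocyte-marker sum of its group (44604) and the lowest lymphocyte-marker sum (670.6). 4-week MHCII-low replicate 1, at 52.3 normalized counts of Slc11a1, had a lymphocyte-marker sum of 2400.2, of which the immunoglobulin gene Ighm made 2126.7. Without Ighm its sum was 273.5, against 237.5 to 775.1 in MHCII-high libraries. These sums differ in content: the T cell gene Cd3e made 213.5 of the 273.5. The B cell genes Cd79a, Cd79b and Ms4a1 held 21.4, 0 and 38.6 there. In MHCII-high libraries Cd3e held 36 to 222.3 at 2 weeks and 0 to 20.4 at 4 weeks.

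The ratio of the transporters differed between the MHCII levels as Slc11a1 did. Per kilobase of exon, Slc11a2 stood 21.39 and 36.9 times above Slc11a1 in the controls. In MHCII-low libraries the ratio ran from 11.11 to 27.91 at 2 weeks and from 29.74 to 285.8 at 4 weeks, where the highest without replicate 2 was 40.08. MHCII-high libraries had ratios of 2.603 to 3.685 at 2 weeks and 2.37 to 15.76 at 4 weeks. In each library Slc11a2 was the more abundant of the pair.

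Against the controls, MHCII-low cells differed in Slc11a1 by 0.78 ± 0.77 at 2 weeks (log2, SE; limma adjusted p = 0.752) and by -1.33 ± 0.77 at 4 weeks (limma adjusted p = 0.869). From 2 to 4 weeks MHCII-low cells differed by -2.12 ± 0.69 (limma adjusted p = 0.254) and MHCII-high cells by -1.07 ± 0.69 (limma adjusted p = 0.521). All 3 of the 4-week MHCII-low libraries lay below all 3 of the 2-week MHCII-low libraries, but neither change with time passed.

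Ferritin heavy chain was higher in the injured lungs' MHCII-low cells at 2 weeks. Fth1 (chr19:9982703-9985092, plus strand) was read at 23917 and 18869 normalized counts in the controls. The 2-week MHCII-low libraries held 57032, 33279 and 57167, each above both controls. At 4 weeks the MHCII-low libraries held 27517, 29400.5 and 33242, also above both controls, and each below each 2-week library, with the nearest pair at 33242 and 33279. The 2-week MHCII-high libraries held 29961, 40393 and 50354, and the 4-week MHCII-high libraries 29237, 19539.7 and 29069.8.

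MHCII-low cells at 2 weeks exceeded the controls by 1.17 ± 0.25 in Fth1 (log2, SE; limma adjusted p = 0.0115). It was the 1 iron gene of 9 that passed in this comparison, in which 1.91% of all genes tested passed. The call was lost without MHCII-low replicate 1 (1.04, limma adjusted p = 0.063), MHCII-low replicate 3 (1.04, 0.0591) or control replicate 3 (1.00, 0.262), and also in edgeR with library totals (0.0629), with the mitochondrial rRNA share as a covariate (0.95, 0.0927) and with only the 2 groups fitted (0.18). It passed under 10 of 16 alternatives, and the direction was the same in all 16.

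Marker values differed between those 2 groups too. Of the 10 monocyte-derived or interstitial macrophage markers, 7 were higher in 2-week MHCII-low cells than in controls (limma). Neutrophil markers summed to 5397 to 5967 against 1023 to 1585 in the controls, with 1 of 3 tested higher. Mmp8 alone made 5061.8 to 5818.5 and 913.4 to 1384.4 of those sums. Of the other listed neutrophil markers, S100a8 held 226, 130.6 and 321.6 against 111.4 and 107.6 in the controls. S100a9 held 17.5 to 100.7 against 1.7 and 87.6, and Ly6g and Camp were at or near 0 in both groups. Erythroid markers, whose cells are a source of haem iron, summed to 420.4 to 771.9 against 281.5 to 355.2, with 0 of 5 tested passing by limma, edgeR or DESeq2 and 0 at an unadjusted p under 0.05 in limma. The part of these cells in the Fth1 difference was not tested.

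At 4 weeks the MHCII-low cells exceeded the same controls by 0.50 ± 0.25 in Fth1 (log2, SE; limma adjusted p = 0.822), which did not pass. From 2 to 4 weeks Fth1 differed by -0.67 in MHCII-low cells (limma adjusted p = 0.263) and by -0.63 in MHCII-high cells (limma adjusted p = 0.182). Between MHCII-high and MHCII-low cells, averaged over both weeks, it differed by -0.25 ± 0.16 (limma adjusted p = 0.378).

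Ftl1, the ferritin light chain (chr7:45457944-45459884, minus strand), was lowest in the controls, at 6527 and 7346 normalized counts. The 2-week MHCII-low libraries held 10236, 8154.5 and 13878, and the 4-week MHCII-low libraries 14628, 8052 and 10287. The MHCII-high libraries held 8994, 9524 and 9507 at 2 weeks and 8693, 9263 and 11726 at 4 weeks. All 12 bleomycin libraries therefore lay above the higher control, as they did for 2.01% of all genes tested. The MHCII-high ones among them differ from the controls in MHCII level too. The differences of MHCII-low cells from controls were 0.60 ± 0.23 at 2 weeks (log2, SE; limma adjusted p = 0.242) and 0.62 ± 0.23 at 4 weeks (limma adjusted p = 0.682), and neither passed. Both comparisons share the 2 control libraries.

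The 2 ferritin chains were not in constant proportion. Per kilobase, Fth1 stood 3.975 and 5.67 times above Ftl1 in controls. The ratio was 6.315 to 8.621 in 2-week MHCII-low libraries, all above both controls, and 2.911 to 5.65 in 4-week ones. In MHCII-high libraries it was 5.154 to 8.195 at 2 weeks and 3.264 to 5.204 at 4 weeks. Ferritin has many processed copies in the mouse genome, and reads could be shared with them: the row of Fth-ps2 held 36.6 to 339.2 normalized counts and that of Ftl1-ps2 8.0 to 35.2. The exons of Ftl1 also share 355 bases with Gm10252 on the other strand.

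Ncoa4, the receptor that carries ferritin to the lysosome (chr14:32159865-32179855, plus strand), stood on the other side of the controls from ferritin in MHCII-low cells, without passing. The controls held 779.5 and 730.0 normalized counts. The 2-week MHCII-low libraries held 496.7, 471.3 and 460.9, and the 4-week MHCII-low libraries 628.6, 643.1 and 621.6, so each lay below both controls and the weeks did not overlap. In MHCII-high cells the values were 473.4, 858.5 and 597.7 at 2 weeks and 441.2, 597.8 and 507.5 at 4 weeks, so 11 of 12 bleomycin libraries lay below the lower control. The count includes MHCII-high libraries, which differ from the controls in MHCII level too. The share of all genes with such a count was not worked out. MHCII-low libraries lay wholly below both controls for 21.6% of all genes at 2 weeks and 16% at 4 weeks. The difference from controls at 2 weeks was -0.66 ± 0.28 (log2, SE; limma adjusted p = 0.315), and the difference between weeks in the MHCII effect was -0.69 ± 0.36 (limma adjusted p = 0.888).

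Slc40a1, ferroportin (chr1:45908068-45926523, minus strand), was lowest in the controls on average, at 101.7 and 128.3 normalized counts. The 2-week MHCII-low libraries held 141.0, 103.5 and 267.0, and the 4-week MHCII-low libraries 124.3, 230.4 and 339.0. The MHCII-high libraries held 337.0, 186.0 and 324.1 at 2 weeks and 474.5, 244.8 and 238.6 at 4 weeks. Of the 12 bleomycin libraries, 10 lay above the higher control, a count whose share over all genes was not worked out. That count also includes MHCII-high libraries, although the controls are MHCII-low. Each neighbouring pair in the order of group means overlapped. Averaged over weeks, MHCII-high cells exceeded MHCII-low cells by 0.65 ± 0.33 (log2, SE; limma adjusted p = 0.267), and MHCII-low cells at 4 weeks exceeded controls by 0.90 ± 0.52 (limma adjusted p = 0.869). Neither passed, and the library-to-library SD within the 4 bleomycin groups was 29.64% to 50.23% of the mean.

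**Figure D4:**
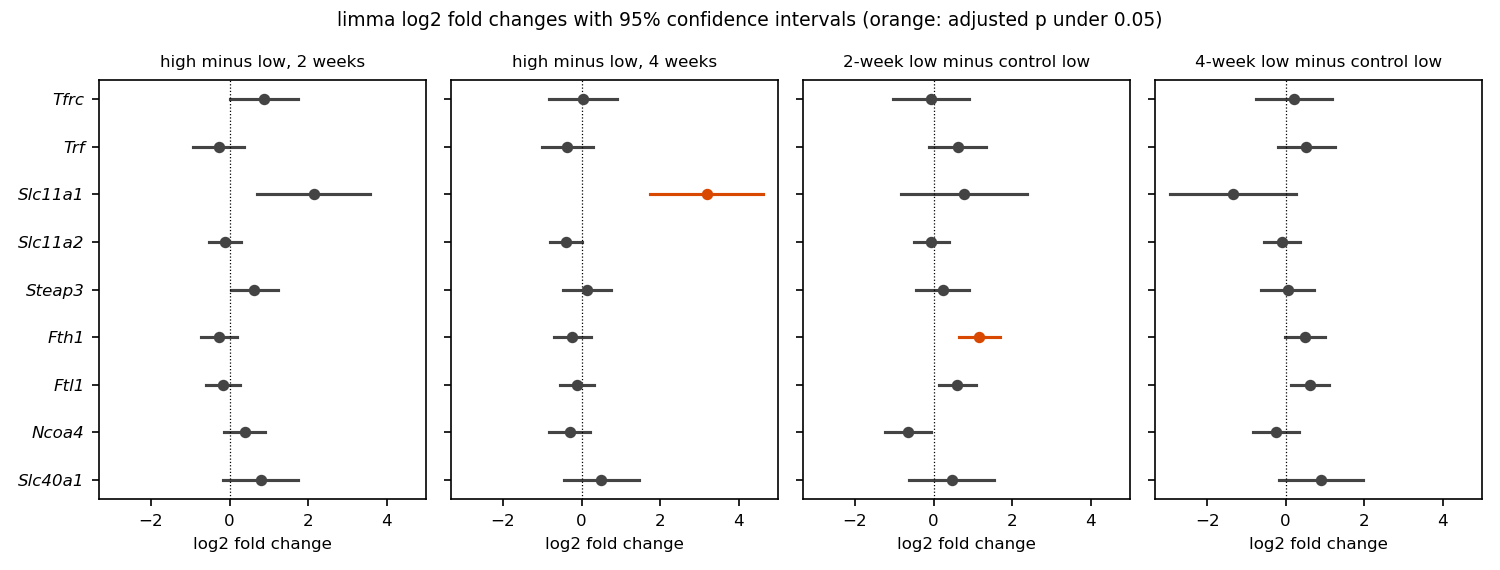
Log2 fold changes of the 9 iron genes with 95% intervals (limma) for MHCII-high against MHCII-low cells at each week and for MHCII-low cells against controls at each week; orange points passed at an adjusted p under 0.05. Slc11a1 at 4 weeks (3.18) and Fth1 at 2 weeks against controls (1.17) passed.

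Read as a group, the 9 genes did not move together. Between MHCII-high and MHCII-low cells at 2 weeks, 5 had a positive and 4 a negative log2 fold change, with a median of 0.39 beside 0.08 over all genes tested. At 4 weeks it was 4 and 5, with a median of -0.12 beside -0.03. Slc11a1 and Steap3 lay wholly above the MHCII-low libraries at 2 weeks, as 12.9% of all genes did, and at 4 weeks Slc11a1 lay wholly above (8.26% of all genes) and Ncoa4 wholly below (8.13%). In MHCII-low cells against controls 6 were positive and 3 negative at both weeks, with medians of 0.46 and 0.21 beside -0.09 and -0.06 over all genes. In these comparisons with the controls, 3 members (Trf, Fth1 and Ftl1) lay wholly above the controls at each week, where 13.7% of all genes did so at 2 weeks and 11.4% at 4 weeks. Ncoa4 lay wholly below at both weeks and Slc11a1 at 4 weeks, where 21.6% of all genes did at 2 weeks and 16% at 4 weeks. From 2 to 4 weeks in MHCII-low cells, Slc11a1 and Fth1 moved to wholly lower values (6.76% of all genes) and Ncoa4 to wholly higher ones (7.22%), and in MHCII-high cells Slc11a1, Steap3 and Fth1 to wholly lower ones (9.06%), none of them passing.

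In 5 comparisons limma passed 0 of the 9 genes. MHCII-high against MHCII-low cells at 2 weeks had 3 genes at an unadjusted p under 0.05 (15.4% of all genes), and DESeq2 passed 1, Slc11a1 (2.04, adjusted p = 0.0153), while edgeR passed 0. For 4-week MHCII-low cells against controls it was 1 gene (6.12% of all genes), with 0.046% of all genes passing after adjustment. For the change from 2 to 4 weeks it was 2 genes in MHCII-low cells (7.48% of all genes), with 0.857% passing, and 2 in MHCII-high cells (14% of all genes), with 1.07% passing. For the difference between weeks in the MHCII effect it was 0 genes (5.68% of all genes), with 0% passing. In these last 4 comparisons edgeR and DESeq2 also passed 0 of the 9.

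Beyond the 9, a list of 45 other genes of iron and haem handling was followed, of which 43 were in the table and 35 were tested. By limma, 0 passed in MHCII-low cells against controls at 2 weeks (7 of 35 at an unadjusted p under 0.05, beside 12.7% of all genes), in the same at 4 weeks (4, beside 6.12%), in the change of MHCII-low cells from 2 to 4 weeks (5, beside 7.48%), between MHCII levels at 2 weeks (7, beside 15.4%) and in the difference between weeks in the MHCII effect (5, beside 5.68%). In those 5 comparisons edgeR passed 0, and DESeq2 passed 2, 1, 1, 3 and 2. In the comparison of MHCII levels averaged over both weeks, 1 was higher and 2 were lower of the 35, where 7.21% of all genes passed, with a median of -0.14 beside 0.02 over all genes.

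**Figure D5:**
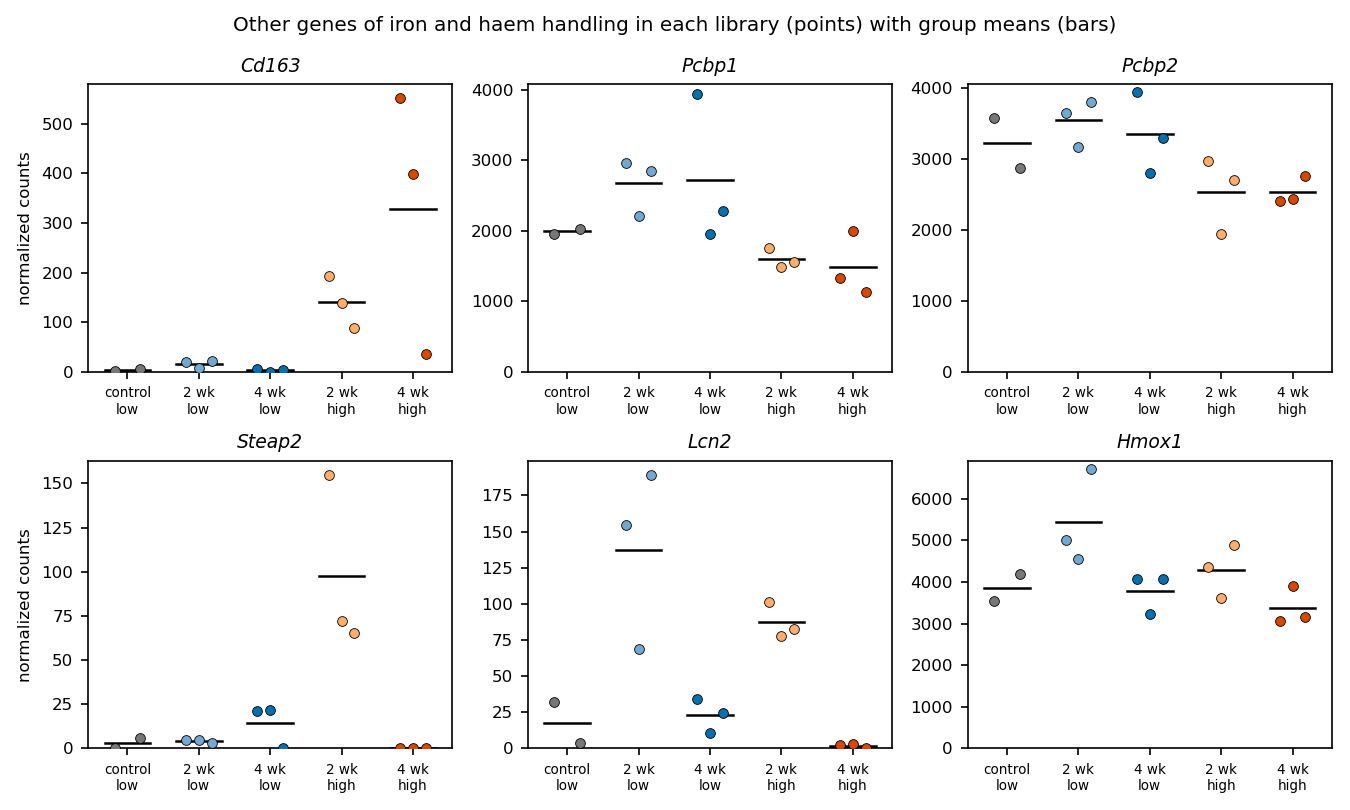
Normalized counts of 6 other genes of iron and haem handling in each library (points), by group, with the group mean as a bar. Cd163 is high in MHCII-high libraries, Pcbp1 and Pcbp2 are lower there on average, and Steap2 and Lcn2 are near or at 0 in the 4-week MHCII-high libraries. Steap2 is also at 0 to 21.6 in the MHCII-low and control libraries.

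Cd163, the scavenger receptor for haemoglobin bound to haptoglobin, was the gene that was higher. The MHCII-high libraries held 194, 139.3 and 87.7 normalized counts at 2 weeks and 551.5, 398.5 and 35.3 at 4 weeks. The MHCII-low libraries held 20.1, 8.0 and 21.5 at 2 weeks and 5.1, 0 and 3.2 at 4 weeks, and the controls 2.3 and 6.0. Each MHCII-high library lay above each MHCII-low and control library. The share of all genes with that pattern was not worked out. At 2 weeks 12.9% of all genes lay wholly above the MHCII-low libraries, and at 4 weeks 8.26%. The average difference in Cd163 was 4.57 ± 0.74 (log2, SE; limma adjusted p = 0.000313), and it passed under all 24 alternatives. At 4 weeks it was 6.08 ± 1.04 (limma adjusted p = 0.00143), lost with only the 2 groups fitted (0.147), and at 2 weeks 3.05 ± 1.04 (limma adjusted p = 0.132). The 4-week MHCII-high library with the least Slc11a1 also had the least Cd163 of the 6. From 2 to 4 weeks in MHCII-high cells the mean of Cd163 went from 140.3 ± 53.2 to 328.4 ± 265 (SD). That of Slc11a1 went from 537.7 ± 61.3 to 312.6 ± 194 (SD). Neither change passed by limma, and the 4-week Cd163 value of 35.3 lay below each 2-week MHCII-high value. The part of other cell types in the Cd163 difference was not tested.

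Pcbp1 and Pcbp2, cytosolic chaperones that hand iron to ferritin and also bind RNA, were the 2 that were lower in MHCII-high cells. Pcbp1 averaged 1603 ± 139 and 1486 ± 451 normalized counts in MHCII-high cells at 2 and 4 weeks, and 2674 ± 408 and 2723 ± 1064 in MHCII-low cells (SD, n = 3 each). The average difference was -0.79 ± 0.17 (log2, SE; limma adjusted p = 0.00527), and it no longer passed with the mitochondrial rRNA share as a covariate (0.116). Pcbp2 differed by -0.45 ± 0.13 (limma adjusted p = 0.0422) and did not pass in 11 of 24 alternatives, 7 of which left out 1 library. With the mitochondrial rRNA share as a covariate its adjusted p was 0.327, and without 2-week MHCII-high replicate 2 it was 0.129.

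Between 2 and 4 weeks, 2 of the 35 genes were lower in MHCII-high cells at the later time, where 1.07% of all genes passed in either direction. Lcn2, a secreted protein that binds iron-carrying siderophores, held 101.4, 77.8 and 82.5 normalized counts at 2 weeks and 2.1, 3.1 and 0 at 4 weeks (1, 2 and 0 reads; limma adjusted p = 0.00909, 0.166 with only the 2 groups fitted). Steap2, a metalloreductase related to Steap3, held 154.9, 72.1 and 65.2 at 2 weeks and was at 0 in all 3 libraries at 4 weeks. With a floor of 3 reads in each 4-week library, the 2-week mean of Steap2 (97.4) was 20.01 times the mean floor (4.867). This ratio of means is not a bound for single libraries. The difference between the weeks passed (limma adjusted p = 0.0105). That call was lost in edgeR with library totals (0.0633), with only the 2 groups fitted (0.119) and without 2-week MHCII-high replicate 1 (0.0576). In MHCII-low cells Lcn2 was also wholly lower at 4 weeks, as 6.76% of all genes were, without passing by limma. It held 154.4, 68.5 and 189.4 there at 2 weeks and 34.3, 10.8 and 24.5 at 4 weeks. Steap2 held 0 to 21.6 in the MHCII-low and control libraries, so only the 2-week MHCII-high libraries stood higher.

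The genes of most similar pattern were ranked by Pearson's r of log2 values over the 14 libraries, among 9994 genes with a mean of at least 100 normalized counts. The libraries share groups and preparation, so r describes these libraries only. For Slc40a1 the nearest were BC005537 (0.813), Plekha1 (0.781) and Rnf2 (0.778). For Tfrc they were D130019J16Rik (0.813), Sepsecs (0.805) and Zfp758 (0.793), and for Trf Akt1 (0.872), Cox7a2l (0.863) and Mien1 (0.863). Slc11a1, added after its values were seen, came nearest to the transcription factor gene Runx3 (0.958), the B cell scaffold gene Bank1 (0.943) and the interleukin-21 receptor gene Il21r (0.938).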

How the data were processed

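The authors deposited 1 table of normalized counts, a signal named as such in the file headers, with GC percent and exon length per gene. The submitters' processing notes name STAR, DESeq2 and mm10. Not given in the sources used here are the kind of scale factor, the counting program, the annotation and strand use. Amplified cDNA was tagged without molecular identifiers, per the labels' protocols, so copies and molecules cannot be separated. A gene was tested if 2 or more libraries held 10 or more normalized counts of it. The test was limma 3.58.1 (mean-variance trend, R 4.3.3) after log2(value + 1), fitted with the 5 groups and adjusted by Benjamini-Hochberg over all 17390 genes. The fold understates changes of low genes. Values fell on multiples of a fixed amount in each library, taken as 1 read. The whole reads so recovered (100% of values under 1000 within 0.06 normalized counts) were tested with edgeR 4.0.16 and DESeq2 1.42.0 as alternatives. The limma fit was also run on simulated counts that had the same spread for every gene. That setting differs from these libraries, so it does not vouch for the calls made here. Replicates differed beyond counting noise in every group. The 9 genes, the gene lists and the comparisons were chosen with earlier results of these data known. All 9 genes, and genes of the iron list that passed, are named. The similar genes are the 3 of highest r.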

Additional observations from a re-analysis of the deposited data

How the results depend on the processing

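None of the 3 called differences of the 9 genes changed sign in any alternative fit. Of 72 pairs of gene and comparison, 25 changed sign somewhere, all with a log2 fold change of 0.78 or less in size. Slc11a1 in 2-week MHCII-low cells against controls (0.78) was -0.22 with the mitochondrial rRNA share as a covariate. The count of the 9 genes that passed moved in 3 comparisons, and the cause was not tested. MHCII-high against MHCII-low cells at 2 weeks went from 0 to 1 in DESeq2, with that covariate and with only the 2 groups fitted. At 4 weeks it went from 1 to 0 without the filter and with only the 2 groups fitted, and was 0 to 1 when leaving out 1 library. MHCII-low cells at 2 weeks against controls went from 1 to 0 in edgeR with library totals, with that covariate and with only the 2 groups fitted, and was 0 to 1 when leaving out 1 library. Scaling moved the split of calls over all genes: averaged over weeks, 69.4% of the genes that passed were higher in MHCII-high cells, against 57.3% with TMM factors in limma, and in edgeR 57.6% with TMM and 48.4% with library totals. DESeq2 passed more of all genes than limma in each of the 8 comparisons (1055 against 499 at 2 weeks, 898 against 434 at 4 weeks), and fitting only the 2 groups left 56 at 4 weeks and 36 of 332 in 2-week MHCII-low cells against controls. Same-numbered MHCII-high and MHCII-low libraries deviated together with r of 0.009 to 0.107, over 0.1 in 1 of 6 pairs. Libraries of other numbers had r of -0.124 to 0.077. Of 12 bleomycin libraries, 8 correlated best with their own number. These values do not settle whether the numbers mark pairs, and the main fit used no pairing. The replicate block was shared over weeks and controls, which is not a pairing of MHCII-high with MHCII-low libraries. With that block, 0, 1, 1 and 1 of the 9 genes passed at 2 weeks, at 4 weeks, averaged over weeks and in 2-week MHCII-low cells against controls, the same counts as without it. A block by number within week was among the 24 alternatives in which the averaged Slc11a1 difference passed. With 2 controls and 7 reads behind the lowest Slc11a1 value, depth and replicate number limit the precision.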

Other observations

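The 14 haem genes listed (12 in the table, 11 tested) leaned one way in 2-week MHCII-low cells against controls: 11 of 11 had a positive log2 fold change and 0 passed by limma, edgeR or DESeq2 (3 at an unadjusted p under 0.05 in limma), with a median of 0.48 beside -0.09 over all genes tested. Hmox1, the inducible haem oxygenase that releases iron from haem, held 5021, 4548 and 6725 normalized counts there against 3540 and 4181 in controls, a difference of 0.48 ± 0.20 (log2, SE; limma adjusted p = 0.316).

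Of the 35 other iron genes tested, 3 lay above both controls in each of the 12 bleomycin libraries, a pattern looked for after their values were seen and shown by 2.01% of all genes tested. MHCII-high libraries are among the 12, so for them MHCII level and treatment differ together. Fbxl5, the iron-sensing subunit of the ligase that degrades iron regulatory proteins, held 3539 and 3549 normalized counts in controls and 4177 to 6404 after bleomycin. Its difference in MHCII-low cells was 0.61 ± 0.18 at 2 weeks (log2, SE; limma adjusted p = 0.108) and 0.72 ± 0.18 at 4 weeks (limma adjusted p = 0.264). DESeq2 passed it at both weeks (adjusted p = 0.0197 and 0.0263). Slc48a1, which carries haem out of the phagolysosome, held 3938 and 4368 in controls and 4557 to 7556 after bleomycin, with limma adjusted p = 0.257 and 0.591. Bach1, a haem-binding transcriptional repressor, held 3069.9 and 3159.5 in controls and 3358 to 5779 after bleomycin, with limma adjusted p = 0.432 and 0.704.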
